A study of Mus musculus with 48 samples.

Results

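The transcription factors and the ligand described here mark the formative and primed states of pluripotency, the stages that follow the naive state of mouse embryonic stem cells. The set holds 9 genes, Fgf5, Otx2, Pou3f1, Sox3, Sox4, Zic2, Zic5, Foxd3 and Grhl2, taken by symbol from the 48321 gene rows of an RNA-seq table. Polyadenylated RNA was measured in 3 lines of male R1 embryonic stem cells of strain 129SV, with 3 libraries each: wild-type (WT), double knockout of Mll3 and Mll4 (dKO), and catalytically deficient Mll3 and Mll4 (dCD). All 3 lines were kept without serum in 2i+LIF medium, with the MEK inhibitor PD0325901 and the GSK3 inhibitor CHIR99021, and were plated onto fibronectin before collection. The series holds 48 samples, and those of its other assays, which profile chromatin and nascent RNA, were not analysed here. The labels name 1 line per genotype, so clone and genotype cannot be told apart. They do not say that the 3 libraries of a line were separate cultures, so the p-values reflect library-to-library spread alone, and that spread may be technical.

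MLL3 and MLL4 are large histone methyltransferases that place monomethylation on lysine 4 of histone H3 at enhancers, and they also act as scaffolds for other proteins there. Naive cells leave the ground state when MEK inhibition is lifted, FGF signalling through ERK proceeds, and OTX2 and POU3F1 (OCT6) redirect OCT4 to new enhancers while Fgf5 is switched on. Sox3, Zic2 and Zic5 are active in the epiblast and later in the neural plate, Foxd3 is needed for epiblast and stem cell maintenance, and GRHL2 opens enhancers of epithelial genes during the transition.

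Expression is given in TPM, a unit of transcript abundance scaled to transcript length and to the library's total, so levels of different genes can be compared. Reads recovered from the values numbered 21090624 to 56249770 per library. The 9 members rested on unequal depth, from 25 to 66 reads per library for Fgf5 up to 2588 to 7914 for Foxd3. A gene was tested if 3 or more of the 9 libraries had at least 1 TPM; 16179 genes qualified, among them all 9 members. Changes are log2 fold changes of TPM + 1 from limma across all tested genes, called at an adjusted p under 0.05. In the dKO line Kmt2c, the gene of MLL3, was at 7.66 ± 0.292 TPM against 21.1 ± 1.22 in WT (mean ± SD, n = 3). Kmt2d, the gene of MLL4, was at 82.9 ± 2.21 against 66.4 ± 1.08 TPM. The labels do not say which exons were edited, so transcript levels of Kmt2c and Kmt2d do not check the genotypes. In bulk RNA, fewer cells that express a gene and less RNA per cell cannot be told apart.

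The members fell into 3 patterns. Sox3 and Sox4 rose in both mutant lines, and more in dCD. Otx2 and Pou3f1 rose in dCD to 2.94 and 2.05 times their WT TPM, whereas in dKO their ratios to WT were 1.09 and 1.08. Foxd3, Zic2 and Zic5 fell in both mutant lines. Of the remaining members, Grhl2 rose in dCD, and Fgf5 passed the test in neither line.

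Against WT, 6 of 9 members were called in dKO, where 71.8% of all tested genes were called, and 8 of 9 in dCD, where 58.4% were. In dKO, 3 members were higher (43.4% of all tested genes were) and 3 lower (28.4% were). In dCD, 5 members were higher (28.9% of all genes) and 3 lower (29.5%). At a change of at least 2-fold on the log2(TPM + 1) scale, 1 member passed in dKO (13.9% of all genes), namely Sox4. In dCD 3 passed (6.94% of all genes), namely Otx2, Sox3 and Sox4. The dKO line was lower than dCD in 5 members and higher in 0, against 69.3% of all genes called, 42.3% higher and 27% lower. Of these members, 1 differed at least 2-fold (11.0% of all genes), namely Otx2. The share of higher genes among those called was 60.4% for dKO against WT and 61.0% for dKO against dCD, and 50.5% and 49.8% after median-ratio scaling. The members' median log2 change was -0.12 in dKO, 0.40 in dCD and -0.47 for dKO against dCD, where the medians of all tested genes were 0.10, -0.01 and 0.10. Both comparisons with WT use the same 3 WT libraries.

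**Figure D1:**
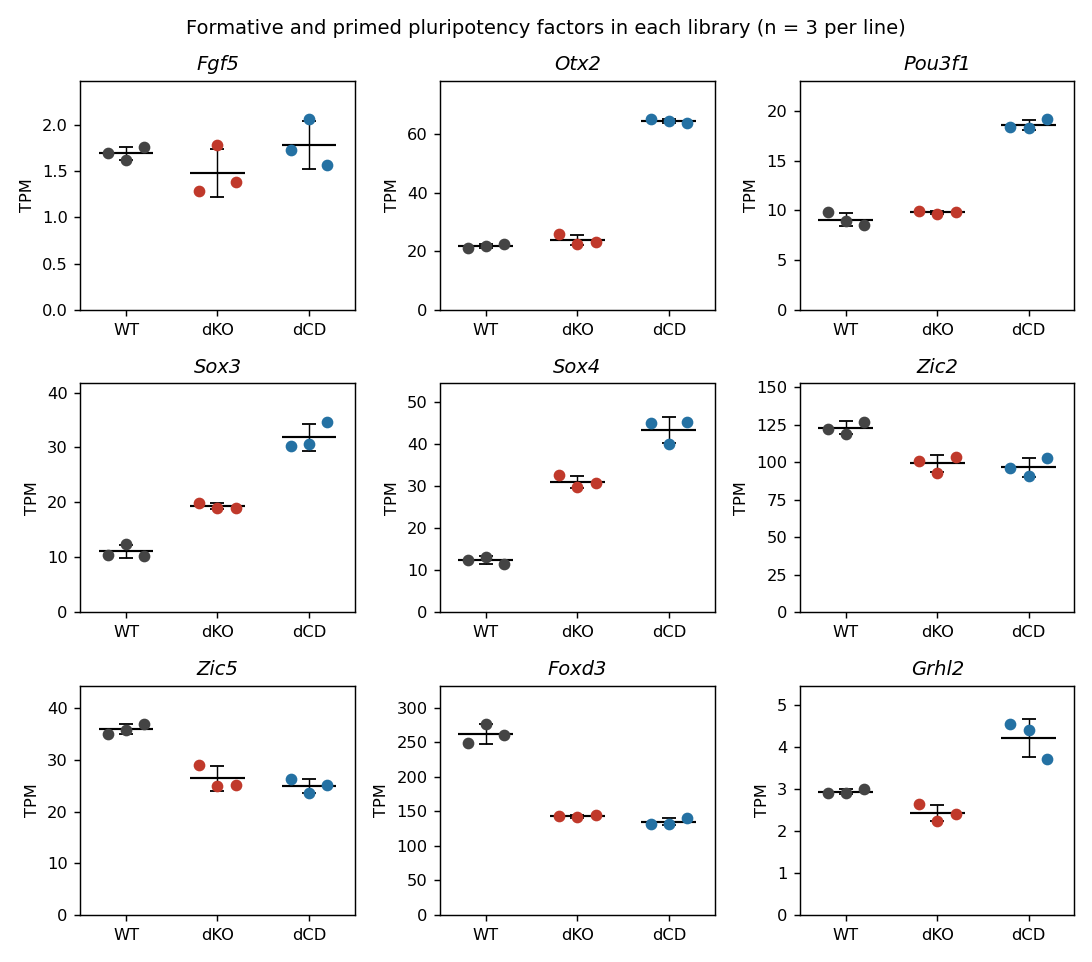
TPM of each member in every library. Points are the 3 libraries of each line, horizontal lines the mean and error bars the SD (n = 3), and each panel has its own axis from 0. Otx2 and Pou3f1 are raised in the 3 dCD libraries, Sox3 and Sox4 in the mutant libraries of both kinds, and Foxd3, Zic2 and Zic5 are lower in both mutant lines.

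Otx2 encodes a paired-type homeobox factor that drives the first step out of the naive state. Its level was 21.15, 21.96 and 22.66 TPM in WT, 25.78, 22.59 and 23.26 TPM in dKO, and 65.08, 64.30 and 63.70 TPM in dCD. The 3 dCD libraries stood far above the other 6, while WT and dKO overlapped. The log2 change in dCD against WT was 1.51 ± 0.0472 (SE, limma, adjusted p = 2.85e-09). The dKO line was lower than dCD by -1.40 (adjusted p = 2.15e-09). The log2 difference of dKO from WT, 0.12 (adjusted p = 0.0472), was past the threshold but was lost in 12 of 16 alternative settings, among them the replicate block (0.12, adjusted p = 0.0666). It was lost without WT replicate 1 or 2, dKO replicate 1 or 3, or any 1 of the dCD libraries, with adjusted p from 0.0529 to 0.174.

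Pou3f1 encodes OCT6, a POU factor of the epiblast that joins OTX2 at formative enhancers. It was at 9.82, 8.93 and 8.49 TPM in WT, 9.93, 9.64 and 9.79 TPM in dKO, and 18.34, 18.29 and 19.15 TPM in dCD. As for Otx2, the dCD libraries were the high ones, and WT and dKO overlapped. The log2 change in dCD against WT was 0.96 (adjusted p = 1.47e-07) and dKO was lower than dCD by -0.86 (adjusted p = 1.86e-07). For dKO against WT it was 0.10 with a 95% interval of -0.02 to 0.22 (limma, adjusted p = 0.114), and without WT replicate 1 it was called at 0.15 (adjusted p = 0.0183).

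Sox3 belongs to the SOXB1 group with Sox1 and Sox2 and is an X-linked gene of the epiblast and neural plate. Its level was 10.52, 12.49 and 10.35 TPM in WT, 19.95, 19.00 and 18.96 TPM in dKO, and 30.26, 30.69 and 34.70 TPM in dCD. The 3 lines did not overlap, and dKO lay between WT and dCD. Log2 changes against WT were 0.75 (adjusted p = 5.12e-06) in dKO and 1.44 (adjusted p = 7.80e-08) in dCD. The dKO line was below dCD by -0.69 (limma, adjusted p = 1.09e-05).

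Sox4, a SOXC factor of progenitor cells, showed the largest changes of the 9 members in both comparisons with WT. It was at 12.36, 13.24 and 11.50 TPM in WT, 32.59, 29.78 and 30.63 TPM in dKO, and 44.89, 39.85 and 45.24 TPM in dCD. The order of the lines was the same as for Sox3, with no overlap. Log2 changes against WT were 1.26 ± 0.0623 (adjusted p = 2.79e-08) in dKO and 1.73 ± 0.0623 (adjusted p = 7.28e-09) in dCD, and dKO was below dCD by -0.47 (limma, adjusted p = 6.63e-05).

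Foxd3 encodes a forkhead factor and was the most abundant member. It was at 248.29, 276.16 and 260.25 TPM in WT, 143.84, 141.01 and 145.32 TPM in dKO, and 131.53, 131.33 and 140.81 TPM in dCD. Every WT library was above every mutant library. Log2 changes against WT were -0.86 (adjusted p = 1.75e-08) in dKO and -0.95 (adjusted p = 2.20e-08) in dCD. The mutant lines differed by 0.09 (limma, adjusted p = 0.0638), a value called in 5 of 16 alternative settings and at -0.01 after median-ratio scaling. Those 5 include leaving out WT replicate 1, WT replicate 2 or dCD replicate 3 (adjusted p = 0.0377, 0.0329 and 0.0209).

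Zic2 and Zic5 are zinc finger genes that lie next to each other on chromosome 14, with the long noncoding RNA gene 2610035F20Rik between them in the RefSeq gene order. Zic2 was at 122.09, 118.80 and 126.99 TPM in WT, 100.77, 92.97 and 103.78 TPM in dKO, and 96.35, 90.68 and 103.13 TPM in dCD. Its log2 change was -0.30 (adjusted p = 3.71e-04) in dKO and -0.34 (limma, adjusted p = 2.65e-04) in dCD. Neither mutant line reached any WT library, and the mutant lines overlapped. Zic5 was at 35.01, 35.73 and 36.92 TPM in WT, 29.06, 24.98 and 25.07 TPM in dKO, and 26.31, 23.65 and 25.07 TPM in dCD. Its log2 change was -0.43 (adjusted p = 7.81e-05) in dKO and -0.50 (limma, adjusted p = 4.32e-05) in dCD. For dKO against dCD the log2 difference was 0.04 for Zic2 (95% interval -0.08 to 0.15) and 0.07 for Zic5 (-0.06 to 0.21), and neither was called. The Zic2 to Zic5 ratio of TPM was 3.32 to 3.49 in WT, 3.47 to 4.14 in dKO and 3.66 to 4.11 in dCD. The noncoding RNA between them was at a mean of 8.25 TPM in WT, 6.88 in dKO and 5.69 in dCD. The counting of reads by strand is not given in the sources used here, so reads of overlapping transcripts cannot be told apart.

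Grhl2 and Fgf5 were the lowest members. Grhl2 was at 2.89, 2.89 and 3.0 TPM in WT, 2.63, 2.24 and 2.41 TPM in dKO, and 4.54, 4.39 and 3.70 TPM in dCD. The 3 lines did not overlap, with dKO lowest and dCD highest. The log2 change was 0.40 (adjusted p = 0.00189) in dCD and dKO was below dCD by -0.60 (limma, adjusted p = 8.78e-05). For dKO against WT it was -0.20 (adjusted p = 0.0535), and 5 of 15 alternative settings called it, at -0.27 (adjusted p = 0.0129) after median-ratio scaling. It was also called without dKO replicate 1 or dCD replicate 3 (adjusted p = 0.0417 and 0.0383). Fgf5, the ligand that is the classical marker of the epiblast, was at 1.70, 1.62 and 1.76 TPM in WT, 1.29, 1.78 and 1.38 TPM in dKO, and 1.73, 2.06 and 1.56 TPM in dCD. All 3 lines overlapped. Its log2 change was -0.12 (95% interval -0.36 to 0.12) in dKO and 0.04 (-0.19 to 0.28) in dCD, and neither was called by limma. Reads summed over the 3 libraries were 111 for WT, 99 for dKO and 163 for dCD, so counting error alone spans about 19.1%, 20.2% and 15.7% of the level on each side (exact Poisson, 95%).

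**Figure D2:**
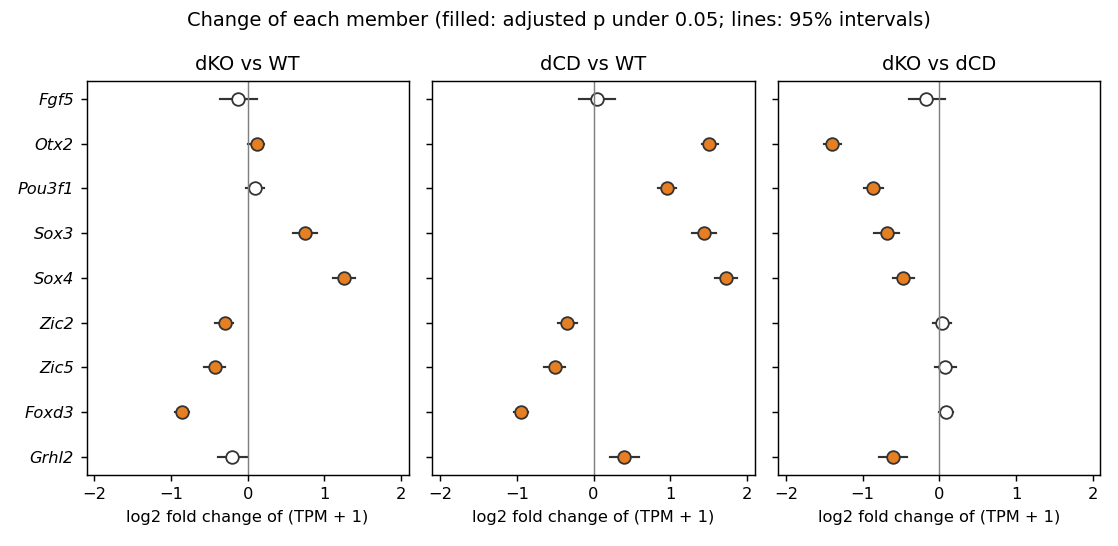
Log2 fold change of TPM + 1 for each member in the 3 comparisons. Points are limma estimates, filled where the adjusted p is under 0.05, and lines are 95% intervals. Otx2 and Pou3f1 sit near 0 for dKO against WT and at 1.51 and 0.96 for dCD against WT.

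In WT the order of the members' levels was Foxd3 (262 TPM), Zic2 (123), Zic5 (35.9), Otx2 (21.9), Sox4 (12.4), Sox3 (11.1), Pou3f1 (9.08), Grhl2 (2.93) and Fgf5 (1.69). Sox4 and Sox3 overlapped there and no other neighbours in that order did. The WT mean of Foxd3 exceeded 96.0% of tested genes and that of Fgf5 exceeded 16.7%, so the set joins genes already high in naive cells with genes near the detection filter. In dCD Otx2 (64.4 TPM), Sox4 (43.3) and Sox3 (31.9) all passed Zic5 (25.0), with no overlap between neighbours in that order. In dKO Sox4 (31.0 TPM) alone was above Zic5 (26.4), and Zic5 overlapped Otx2 (23.9).

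Paralogs of the members moved in part differently. In the OTX family, Otx1 was at 0.740 ± 0.0692 TPM in WT, 3.42 ± 0.201 in dKO and 0.922 ± 0.105 in dCD (mean ± SD, n = 3), so Otx1 was the raised gene in dKO and Otx2 the raised gene in dCD. Its log2 change was 1.35 in dKO (adjusted p = 3.07e-07) and 0.14 in dCD (limma, adjusted p = 0.203). Otx1 was below 1 TPM in every WT library and was tested only because of its dKO libraries, so its dKO call is tied to the filter. Otx2 still made up 87.4% ± 1.0 of the family's TPM in dKO, against 96.7% ± 0.193 in WT. In the POU3 family, the neural factor Pou3f2 rose in both lines, from 0.452 TPM to 1.38 TPM in dKO and 1.56 TPM in dCD. Pou3f3 rose from 0.790 to 1.47 TPM in dKO and was at 1.21 TPM in dCD. Its dCD call (0.31, limma, adjusted p = 0.0345) was lost with the replicate block (adjusted p = 0.0546), with no filter (0.0574), and without WT replicate 1 or 3 or dCD replicate 1 or 3 (0.0586 to 0.118). Pou3f2 and Pou3f3 were below 1 TPM in every WT library too, so their higher calls carry the same limit as that of Otx1. Pou3f4 was at 0.0596, 1.10 and 0.237 TPM in WT, dKO and dCD and was not tested.

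In the SOXB1 group Sox2, the core pluripotency factor, was at 1235 ± 23.1 TPM in WT, 774 ± 14.1 in dKO and 734 ± 27.9 in dCD, with log2 changes of -0.67 (adjusted p = 9.18e-09) and -0.75 (limma, adjusted p = 1.13e-08). Sox1, a marker of neural progenitors, was at 14.3, 60.1 and 18.8 TPM in the same order, a rise of 2.00 in dKO (adjusted p = 5.31e-11) and of 0.37 in dCD (limma, adjusted p = 2.69e-05). Sox3 therefore made up 0.883% of SOXB1 TPM in WT, 2.26% in dKO and 4.06% in dCD, while Sox1 made up 1.14%, 7.04% and 2.40%. In the SOXC group, Sox4 went from 10.9% ± 0.702 of the family's TPM in WT to 18.8% ± 0.755 in dKO and 32.7% ± 0.862 in dCD. Sox11 rose in both lines, from 6.32 to 21.2 TPM in dKO and 14.0 TPM in dCD. Sox12, the most abundant SOXC gene, was at 94.9, 113 and 75.1 TPM, with a log2 change of 0.25 in dKO (adjusted p = 8.81e-05) and -0.33 in dCD (limma, adjusted p = 1.65e-05).

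Among the ZIC genes, Zic1, a neural gene, was at 0.0639 TPM in WT, 3.63 TPM in dKO and 2.04 TPM in dCD, and rose in both. Zic1 was tested only because its mutant libraries passed the filter. Zic4 stayed below 1 TPM in all 3 lines and was not tested. Foxd3 made up 99.1% of FOXD TPM in WT, 95.9% in dKO and 98.3% in dCD, and Foxd1 was at 1.81, 4.97 and 1.17 TPM. Foxd2 and Foxd4 were not tested. Grhl3, the most abundant grainyhead gene, was at 42.3, 70.2 and 63.0 TPM, and rose in dKO (0.72, adjusted p = 7.17e-07) and in dCD (0.56, limma, adjusted p = 9.16e-06). Grhl1 was at 4.31, 3.49 and 4.64 TPM. Fgf4, the FGF ligand that naive cells make, was at 445, 178 and 466 TPM, and Fgf5 made up 0.379%, 0.827% and 0.381% of that group's TPM. Fgf6 and Crx, the remaining genes of the FGF4 and OTX groups, were under 1 TPM.

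**Figure D3:**
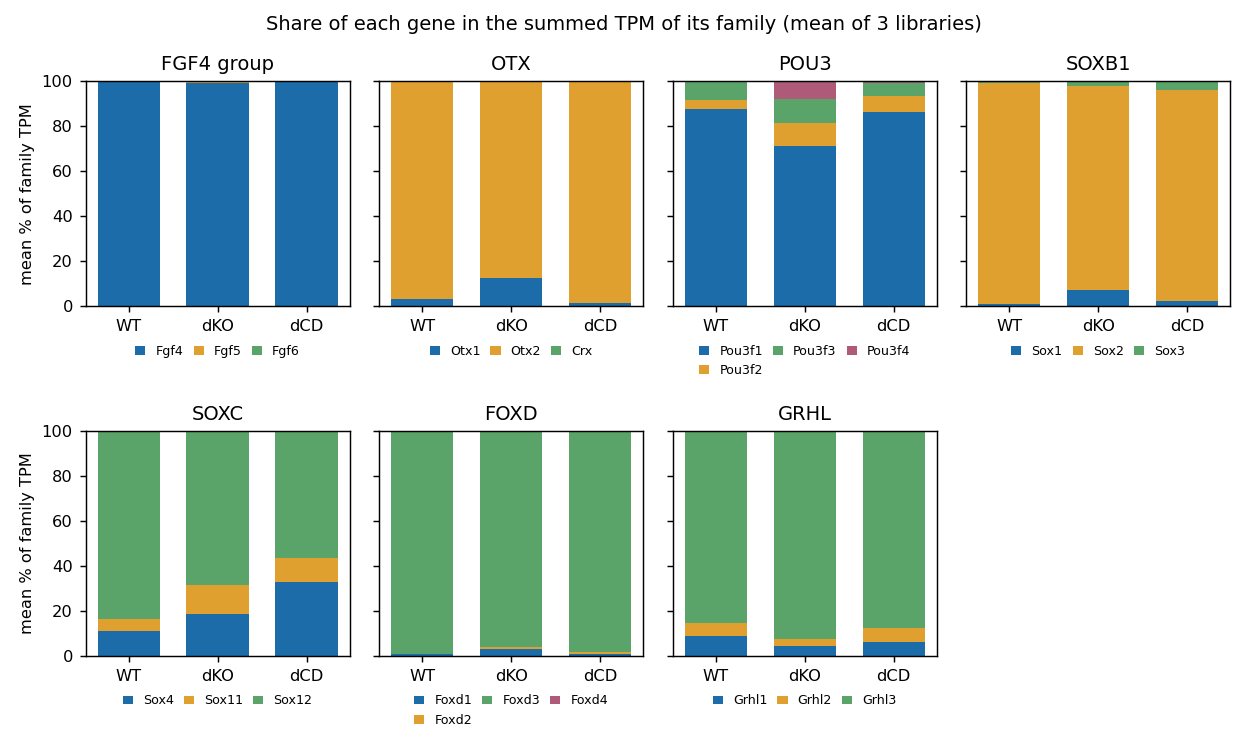
Share of each gene in the summed TPM of its family, for 7 families, as the mean of 3 libraries per line, on an axis from 0 to 100%. Otx1 takes a larger share in dKO (12.6%) than in WT (3.26%), and Sox4 goes from 10.9% in WT to 32.7% in dCD.

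By chromosome in the RefSeq annotation, Fgf5 lies on 5, Foxd3 and Pou3f1 on 4, Otx2, Zic2 and Zic5 on 14, Sox4 on 13, Grhl2 on 15 and Sox3 on X. Genes beside the members were mostly below 1 TPM. Otx2os1, the noncoding gene next to Otx2, was at 0.229, 0.10 and 0.376 TPM in WT, dKO and dCD. Sox2ot, which overlaps Sox2, was at 0.434, 0.404 and 0.274 TPM. Gm12688, a noncoding gene beside Foxd3, was at 19.3 ± 2.39, 15.7 ± 0.432 and 11.3 ± 1.66 TPM, with log2 changes of -0.27 (adjusted p = 0.0329) and -0.72 (limma, adjusted p = 1.45e-04). The dKO call was lost with the replicate block (adjusted p = 0.0560), with voom (0.0621), with no filter (0.0773), and without WT replicate 1 or 3 or any 1 dKO library (0.0537 to 0.121). Alg6, the protein-coding gene after Foxd3, was at 9.99, 10.9 and 8.28 TPM. For Grhl2, the neighbours Gm16136 and Ncald were below 1 TPM, as was Cfap299 next to Fgf5. Among all tested genes with a symbol, the patterns nearest to Otx2 over the 9 libraries were those of Timp3, Rhox5 and Arap3, at Euclidean distances of 0.21, 0.23 and 0.28 on the log2 scale after each gene's WT mean was subtracted. For Sox3 they were Dlk1 (0.28), Trim47 (0.30) and Cntfr (0.32), and for Sox4 Ier5 (0.31), Pdzrn3 (0.33) and Rin3 (0.33). These are descriptions of likeness over 9 libraries.

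Promoter sequences of the RefSeq annotation (GRCm38.p6), the 250 bases before the transcription start, were at hand for 5 of the 9 members. Those shown belong to genes that fell or rose in both mutant lines, and to the first of 4 annotated starts of Otx2. They are written 5′ to 3′ on the gene's own strand. Capitals mark matches, on either strand, of any of 6 motifs searched, which are spelled out after the sequences. Foxd3 is at chr4:99656049-99656298 on the + strand, Zic5 at chr14:122465659-122465908 on the - strand, Sox4 at chr13:28953700-28953949 on the - strand and Otx2 at chr14:48667645-48667894 on the - strand.
Foxd3: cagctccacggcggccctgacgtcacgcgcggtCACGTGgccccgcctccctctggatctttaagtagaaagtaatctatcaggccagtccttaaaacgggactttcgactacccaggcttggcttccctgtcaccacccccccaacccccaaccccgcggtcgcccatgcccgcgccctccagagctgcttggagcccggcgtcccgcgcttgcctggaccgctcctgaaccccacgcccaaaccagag
Zic5: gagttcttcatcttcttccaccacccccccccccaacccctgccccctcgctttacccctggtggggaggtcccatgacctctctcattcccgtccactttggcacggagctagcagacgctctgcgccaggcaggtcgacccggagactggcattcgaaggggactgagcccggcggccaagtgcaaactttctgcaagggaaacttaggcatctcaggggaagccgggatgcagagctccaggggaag
Sox4: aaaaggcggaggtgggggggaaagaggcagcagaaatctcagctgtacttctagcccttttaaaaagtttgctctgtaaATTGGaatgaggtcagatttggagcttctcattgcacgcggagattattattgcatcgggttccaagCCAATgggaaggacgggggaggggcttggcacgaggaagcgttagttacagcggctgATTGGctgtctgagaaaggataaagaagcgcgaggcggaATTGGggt
Otx2: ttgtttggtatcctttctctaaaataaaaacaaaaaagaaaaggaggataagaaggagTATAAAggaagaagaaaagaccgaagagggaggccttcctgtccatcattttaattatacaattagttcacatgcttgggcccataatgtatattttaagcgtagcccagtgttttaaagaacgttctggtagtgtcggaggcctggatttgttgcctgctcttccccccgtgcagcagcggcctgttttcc

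The Sox4 window held 4 matches of the CCAAT box (the letters CCAAT) and none of the other motifs, where 33.8% of 32536 promoter windows held at least 1. The Foxd3 window held 1 match of the E-box spelled CACGTG (6.04% of windows) and 21 CpG dinucleotides, against a median of 6 over all windows. The first Otx2 window held 1 match of the TATA box spelled TATAAA (12.3% of windows) and 6 CpG, and the Zic5 window held none of the 6 motifs and 11 CpG. No match overlapped another in these windows. None of these 4 windows held the GC box, spelled GGGCGG and found in 33.0% of all windows. The same was true of the octamer bound by POU factors, which is ATGCAAAT and was found in 1.62%. It was also true of the homeodomain core TAATCC, which was found in 6.25%. The Otx2 windows not shown differ: start 2 held 1 CCAAT box, start 3 held 1 match of TAATCC and start 4 held none of the 6 motifs. A match is a description of letters and not a bound site.

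Other genes of the formative programme, 20 listed, moved in both directions. In dKO 9 were higher and 10 lower, with a median log2 change of -0.12 beside an all-gene median of 0.10. The all-gene shares for dKO were 43.4% called higher and 28.4% called lower, so the count of 9 higher was near its share. In dCD 8 were higher and 7 lower, with a median of -0.01 beside an all-gene median of -0.01. The all-gene shares for dCD were 28.9% called higher and 29.5% called lower. In dKO the epiblast factor Tcf15 rose from 159 ± 2.20 to 1034 ± 39.6 TPM (2.69, adjusted p = 2.75e-12), and was at 154 TPM in dCD (-0.05, limma, adjusted p = 0.287). Wnt8a, a WNT ligand of the primitive streak, rose from 0.251 to 13.7 TPM in dKO and 3.14 TPM in dCD. The ETS factor Etv4, a target of FGF-ERK signalling, fell from 86.2 to 7.41 TPM in dKO and 21.6 TPM in dCD, and the tight junction gene Cldn6 fell from 39.8 to 5.41 TPM in dKO. In dCD the called genes with the largest changes were Etv4, Wnt8a, Sox11 and Sall2, the last at 5.65, 15.5 and 11.6 TPM.

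Lineage-primed genes (10 listed, 8 tested), which mark primitive streak and early germ layers, were higher in 5 and lower in 2 cases in dKO and higher in 3 and lower in 1 in dCD, with medians of 0.73 and 0.06. At a minimum of 5 TPM, where fewer of these genes are tested, 2 were higher and 1 lower in dKO and 1 was higher in dCD. Evx1 rose from 1.18 to 8.35 TPM in dKO and Foxa2, an endoderm factor, from 0.291 to 2.92 TPM in dKO and 2.04 TPM in dCD. Lefty2, a Nodal antagonist, went from 46.3 to 121 TPM in dKO and to 28.0 TPM in dCD. Regulators of the exit from naive pluripotency (12 tested) were higher in 6 and lower in 3 in dKO and higher in 2 and lower in 7 in dCD, with medians of 0.07 and -0.23, none at 2-fold. Their dKO counts were near the shares of all tested genes, 43.4% higher and 28.4% lower, and in dCD those shares were 28.9% and 29.5%. The count of 2 higher in dCD was 1 in 9 alternative settings: no filter, only the lines compared, and without WT replicate 2 or 3, any 1 dKO library, or dCD replicate 1 or 3. Fnip2, a partner of folliculin, was at 37.2, 50.9 and 27.2 TPM in WT, dKO and dCD.

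Naive and core pluripotency genes (18 tested) were lower in 14 cases in dKO and 15 in dCD, and higher in 3 and 1, with medians of -0.53 and -0.35. Of all tested genes, 28.4% were lower in dKO and 29.5% in dCD, and 43.4% and 28.9% higher. Tcl1, an AKT coactivator, fell from 290 to 7.88 TPM in dKO and to 152 TPM in dCD, and Fbxo15 from 418 to 70.0 TPM in dKO but rose to 608 TPM in dCD. Klf4 rose to 808 TPM in dKO from 475 TPM in WT and was at 384 TPM in dCD. Summed over the list, TPM was 10891 to 11016 in WT, 8360 to 8414 in dKO and 8207 to 8468 in dCD, so core pluripotency transcripts stayed abundant in every library. Of 10 tested FGF-ERK genes, 3 were higher and 4 lower in dKO and 4 higher and 6 lower in dCD, with medians of 0.14 and -0.32. The shares of all tested genes beside these counts were 43.4% higher and 28.4% lower in dKO, and 28.9% and 29.5% in dCD. The feedback inhibitor Spry4 fell from 47.2 to 21.5 TPM in dKO and 12.1 TPM in dCD, and the receptor Fgfr2 rose from 2.97 to 5.65 TPM and 12.3 TPM.

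Of the 14 epithelial genes listed beside Grhl2 (13 tested), 8 were lower and 2 higher in dKO, with a median of -1.07. In dCD 6 were higher and 4 lower, with a median of 0.15. Among all tested genes 28.4% were lower and 43.4% higher in dKO, and 29.5% and 28.9% in dCD. The count of 2 higher in dKO was 1 without WT replicate 2 and with median-ratio scaling, where Esrp2, a splicing regulator, lost its call (adjusted p = 0.0510 and 0.0586). Between the mutant lines dKO was lower in 11 and higher in 1, with a median of -0.96. Cdh1, the gene of E-cadherin, was at 169 ± 5.02 TPM in WT, 12.8 ± 0.373 in dKO and 290 ± 12.4 in dCD, with log2 changes of -3.63 (adjusted p = 8.90e-13) and 0.77 (limma, adjusted p = 5.32e-08). Cldn4, a claudin of tight junctions, was at 150, 36.4 and 206 TPM, and Epcam at 102, 132 and 90.8 TPM. Genes of the epithelial-mesenchymal transition (9 listed, 8 tested) were higher in 4 and lower in 2 in dKO and higher in 5 and lower in 2 in dCD, with medians of 0.40 and 0.46. The dKO counts were near the shares of all tested genes, 43.4% higher and 28.4% lower, and in dCD those shares were 28.9% and 29.5%. The count of 2 lower in dCD was 1 without WT replicate 1, WT replicate 3 or dCD replicate 2 and with no filter, and the count of 5 higher was 3 at a minimum of 5 TPM. Cdh2, the gene of N-cadherin, rose from 4.33 to 19.0 TPM in dKO and 15.6 TPM in dCD, while the repressor Snai1 was at 7.21, 7.27 and 24.0 TPM.

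**Figure D4:**
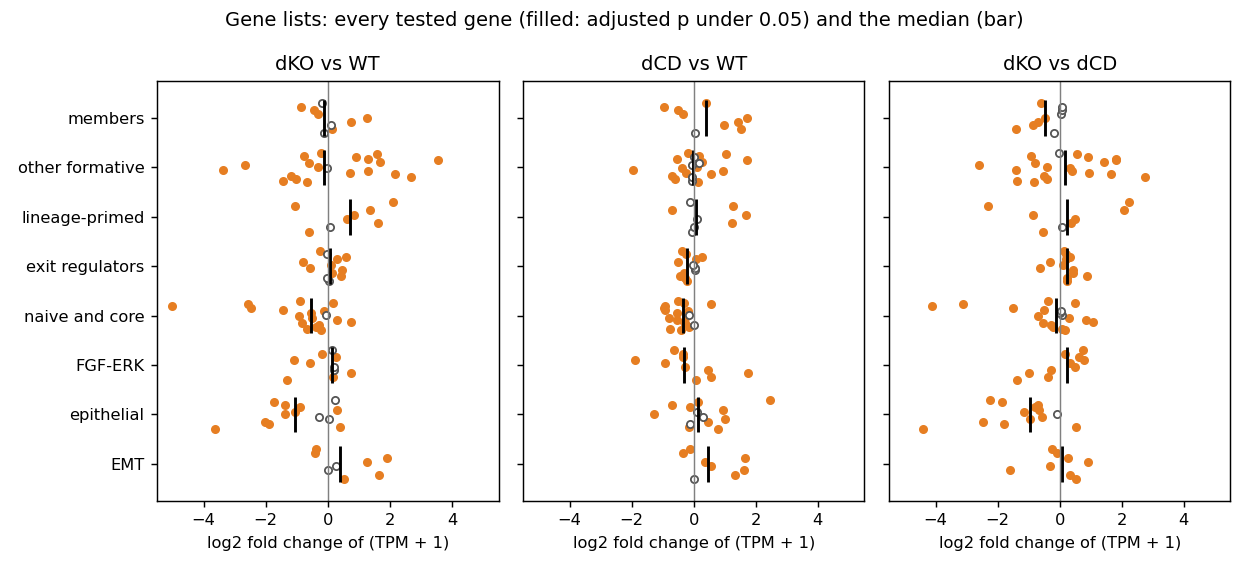
Log2 fold change of TPM + 1 of every tested gene in 8 lists, in the 3 comparisons. Filled points have an adjusted p under 0.05, open points do not, and the vertical bar is the list's median. The epithelial list has a median of -1.07 for dKO against WT and 0.15 for dCD against WT.

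Markers of other cell types moved with the lines too. The summed TPM of 10 neural markers was 213 to 229 in WT, 174 to 178 in dKO and 260 to 268 in dCD, with 3 of 10 below 1 TPM in every library. The lower dKO sum came from Tubb3, a neuronal tubulin gene at 185 TPM in WT and 85.9 TPM in dKO. Without Tubb3, left out after its values were seen, the sum was 36.8 to 38.6 in WT, 86.9 to 91.7 in dKO and 63.0 to 66.1 in dCD, so the order of dKO and WT turned. Most of the gain that remained in dKO was Sox1, at 14.3, 60.1 and 18.8 TPM in WT, dKO and dCD. In dCD most of it was Nes, at 18.8, 22.8 and 39.2 TPM. Pax6 fell in dKO from 1.21 to 0.624 TPM (limma, adjusted p = 0.00289), so the list did not rise as a whole. The summed TPM of 6 neural crest markers was 8.81 to 10.3 in WT, 6.92 to 7.96 in dKO and 16.9 to 18.3 in dCD, with 2 below 1 TPM. There the lower dKO sum came from Tfap2a, at 8.18 TPM in WT and 2.98 TPM in dKO, and without it the sums were 0.970 to 1.48, 4.50 to 4.65 and 11.4 to 11.8.

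Summed over 10 fibroblast markers, TPM was 10.6 to 13.0 in WT, 178 to 200 in dKO and 975 to 1059 in dCD. Acta2 (0.488, 100 and 520 TPM) and Tagln (2.38, 70.7 and 468 TPM), which encode smooth muscle cytoskeletal proteins, made up 22.6% to 26.4% of the sum in WT, 88.3% to 90.3% in dKO and 96.8% to 97.2% in dCD. The collagen genes of the list rose in both mutant lines: Col1a1 was at 0.470, 10.2 and 7.57 TPM, Col1a2 at 0.0189, 1.28 and 6.45 TPM, and Col3a1 at 0.00873, 1.11 and 1.23 TPM. Lum, Dcn and Postn stayed below 1 TPM in every library. Thy1 went the other way in dKO, from 2.18 to 0.412 TPM (-1.18, limma, adjusted p = 2.84e-05), and was at 3.39 TPM in dCD. Pdgfrb was at 5.91, 6.60 and 11.1 TPM and was not called in dKO (limma, adjusted p = 0.147). Summed over 6 trophoblast markers, TPM was 89.1 to 96.4, 122 to 127 and 567 to 605. The keratin genes Krt8 and Krt18 made up 38.4% to 41.3% of that sum in WT, where Tfap2c was the most abundant marker at 54.6 TPM, 72.1% to 74.5% in dKO and 87.5% to 88.2% in dCD. Without the keratin genes the sums were 53.6 to 57.2, 32.4 to 34.4 and 70.9 to 71.7, with dKO below WT. That lower dKO sum came from Tfap2c, at 30.1 TPM in dKO. Cdx2 and Hand1 went the other way and were called higher in dKO (limma, adjusted p = 0.00359 and 6.14e-04). They were also called higher in dCD (limma, adjusted p = 8.50e-07 and 8.98e-06), and Elf5 stayed below 1 TPM in every library. Cdx2 and Hand1 were below 1 TPM in every WT library, so their calls are tied to the filter. Summed endoderm markers, 6 in number, were 8.77 to 10.5 in WT, 16.3 to 17.4 in dKO and 15.0 to 17.3 in dCD. Summed mesoderm markers, also 6, were 5.18 to 6.67, 8.27 to 9.16 and 7.17 to 8.33. The mesoderm list shares Hand1 (0.635, 1.75 and 3.48 TPM) with the trophoblast list, and Kdr was at 0.735, 3.11 and 0.702 TPM. T was at 1.48, 0.643 and 1.40 TPM and Tbx6 at 2.26, 1.51 and 1.19 TPM, so the mesoderm genes did not rise together. None of these markers was at 0 in all libraries. Their part in the members' changes was not tested.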

How the data were processed

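The authors deposited 1 table of TPM values per gene and library for the 9 RNA-seq libraries, with gene symbols and lengths. Per the submitters' processing notes, HISAT2, featureCounts and DESeq2 were used with genome build mm9, without versions. Neither the gene annotation, nor strand handling, nor how multi-mapped reads were treated, is given in the sources used here. Libraries were grouped by their titles.

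TPM multiplied by length gave whole reads for 100% of values within 0.01, from which depth was taken. Replicates differed beyond counting error, with chi-square per degree of freedom of 1.53 to 3.81, so none repeats another. The test was limma's moderated linear model (version 3.58.1, R 4.3.3, trend in eBayes). It used log2(TPM + 1) of genes at 1 TPM or more in at least 3 libraries, a single model over the 9 libraries, two-sided p-values and Benjamini-Hochberg adjustment over all 16179 genes tested. A pseudocount of 1 understates changes of low genes. The fit was tested on simulated data. Python 3.11.15 with numpy 2.4.6, scipy 1.17.1 and pandas 2.3.3 made the tables, and matplotlib 3.10.9 drew the plots. In 27 rows the symbol had become a date.

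The members and lists were chosen with earlier results of these data known. Genes were named by rule: every member, paralog and neighbour; up to 4 called genes per list and comparison by size of change; and the 3 genes nearest in pattern to members past 2-fold. Some genes that this rule picks are not reported here. Paralogs with shared sequence may share reads. Promoter sequences came from RefSeq, and no other coordinates are given because the builds differ. Alternatives changed the pseudocount, the filter, the scaling, the model and the libraries.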

Additional observations from a re-analysis of the deposited data

How the results depend on the processing

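Of 426 alternative values of the 27 member comparisons, 398 kept their direction and their side of the threshold, 12 lost the call, 11 gained one and 5 turned in sign. All 12 losses concern Otx2 in dKO against WT, whose log2 change ranged from 0.02 (median-ratio scaling, adjusted p = 0.694) to 0.15. The gains concern Foxd3 for dKO against dCD, and Grhl2 and Pou3f1 for dKO against WT. Pou3f1 was called without WT replicate 1 (0.15, adjusted p = 0.0183). Sign changes concern uncalled values, except for Sox2: with median-ratio scaling Foxd3 was at -0.01, Zic2 at -0.06, Zic5 at -0.02 and Sox2 (called at 0.08 in the reported fit) at -0.02 for dKO against dCD, and Cldn7 at -0.04 and Snai1 at -0.08 for dKO against WT. Snai1 was at -0.04 with voom on recovered reads. Leaving out 1 library turned Fgf5 in dCD against WT to -0.03 and Zic2 in dKO against dCD to -0.01 (both without dCD replicate 2), and Cldn6 in dCD against WT to 0.01. Over the libraries left out, Zeb1 ranged from -0.03 to 0.03 (dCD against WT) and Snai1 from -0.11 to 0.09 (dKO against WT). The cause was not tested.

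Genes called at 2-fold or more in dCD against WT numbered 1123, and 1744 with a pseudocount of 0.1, 695 with a minimum of 5 TPM and 1854 with voom. For dKO against dCD they numbered 1774, and 2711 with voom. Members at 2-fold in dCD against WT numbered 3, and 4 with a pseudocount of 0.1, with voom or without WT replicate 1. The added member was Pou3f1, whose log2 change ranged from 0.92 to 1.03. The same-numbered libraries' deviations correlated at -0.0494 to 0.0424, and those of differently numbered libraries at -0.0655 to 0.0726. No strong effect shared by a number was seen, so the reported fit used no block. The labels do not say what a number shares, so these values cannot show that the libraries are unpaired. A replicate block gave 5, 8 and 5 members called and 11533, 9273 and 11114 genes called for dKO against WT, dCD against WT and dKO against dCD, and among the members it changed the call of Otx2 in dKO against WT. Low read numbers limit Fgf5 and Grhl2, and 3 libraries of 1 line per genotype limit all comparisons.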
